A study of Mus musculus with 32 samples.

Results

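Extracellular ATP, ADP, UTP and UDP act on P2 receptors, and adenosine acts on the P1 (adenosine) receptors. P2X receptors are ATP-gated cation channels, whereas P2Y and adenosine receptors are coupled to G proteins. Ectonucleotidases on the cell surface degrade ATP and ADP and so set which ligand reaches which receptor. In myeloid cells these proteins are known for their part in chemotaxis, inflammasome activation and the dampening of inflammation.

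The 10 genes described here were *P2rx4* and *P2rx7* (ATP-gated channels), *P2ry2* (a receptor for ATP and UTP), *P2ry6* (UDP), *P2ry12* and *P2ry13* (ADP), *P2ry14* (UDP and UDP-sugars), *Adora2a* and *Adora2b* (adenosine) and *Entpd1*. *Entpd1* encodes CD39, an ectonucleotidase and not a receptor. They were taken by symbol and Ensembl ID from the genes of the 2 expression tables, 28827 in all, and each of the 10 was listed in both tables. They were chosen by function among genes whose deposited peaks, levels and genotype comparison had already been seen, so their counts and levels are given as descriptions with no test.

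The study asked what the RNA-binding protein IGF2BP3 does in leukemia driven by MLL-Af4, a fusion of MLL with Af4. Lin- cells were mouse bone marrow cells depleted of lineage-positive cells, transduced in culture with a retrovirus carrying MSCV-MLL-flag-Af4 and selected with G418. CD11b+ cells were enriched by magnetic beads from splenic tumors of mice with MLL-Af4 leukemia, although the names of the CD11b+ eCLIP libraries begin with bm, so the organ behind those libraries is not settled. RNA-seq covered 3 wild type (WT) and 3 IGF2BP3 KO libraries in each cell type, and the deposited table of each cell type gives 1 mean normalized count per gene over both genotypes. The knockout is a germline deletion of exon 2 of *Igf2bp3* that arose from leaky Vav1-Cre, and because only that mean was used here, neither the knockout nor an effect of genotype was examined. IGF2BP3 eCLIP, which crosslinks the protein to RNA in the cell and sequences the bound fragments, was done in WT/MLL-Af4 cells, each library beside a size-matched input. Lin- cells gave 6 eCLIP libraries, numbered 1 to 3 (biological) and 4 to 6 (technical), and CD11b+ cells gave 4, numbered 1 and 2 (biological) and 3 and 4 (technical). The fusion was thus present in every group, and no group without it entered the comparisons.

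Each filtered Lin- list held between 4040 and 10042 eCLIP peaks, each CD11b+ list between 7085 and 10054, and the smallest peaks had 3 reads. The lists do not give sequencing depth, and peak numbers were used in its place. *Igf2bp3* itself had a mean of 2041 in the Lin- and 1355 in the CD11b+ table. Marker genes fitted the labels in part. All 8 markers of immature myeloid progenitors passed a mean of 10 in both tables. *Kit* had a mean of 6974 in Lin- and 673 in CD11b+ cells, *Elane* went the other way at 14416 and 43055, and the myeloid gene *S100a8* stood at 2083 and 39348. *Itgam*, which encodes CD11b itself, had a mean of only 17.0 in CD11b+ cells and was not listed for Lin- cells. Markers of other cell types were present too. On a length-scaled level (mean count over exon length, scaled so that all genes of a table sum to 1000000, called TPM here), the 8 progenitor markers summed to 7686 TPM in Lin- and 9602 in CD11b+ cells. On this scale 8 macrophage markers summed to 361 TPM in Lin- and 375 in CD11b+ cells, 4 B-cell markers to 611.5 and 260.5, 5 megakaryocyte markers to 137 and 3.09, 5 erythroid markers to 44.4 and 399, and 5 stromal and endothelial markers to 127 and 58.2. None of the listed T- and NK-cell markers reached a mean of 10 in either table. The part of these cells in the levels below was not tested, and fewer cells of a type cannot be told apart from less RNA per cell in bulk samples.

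IGF2BP3 peaks were present on 5 of the 10 genes. In Lin- cells 3 genes (*P2rx4*, *P2ry2* and *Entpd1*) carried at least 1 filtered peak, against 26.5% of all genes in that table and 39.8% of those with a mean of at least 10. In CD11b+ cells 4 genes (*P2rx4*, *P2rx7*, *P2ry6* and *P2ry2*) did, against 25.6% and 37.1%. There 9 of the 10 genes had a mean of at least 10, since *P2ry12* had a mean of 4.03. Both counts were near these backgrounds. *P2ry12*, *P2ry13*, *P2ry14*, *Adora2a* and *Adora2b* had no peak in any of the 10 libraries. The lists hold called peaks only, so this says that none was called and does not show that IGF2BP3 was not bound.

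*P2rx4* accounted for 15 of the 25 peaks on these genes. Its channel opens on ATP and is known from microglia and macrophages. The Lin- biological replicates 1, 2 and 3 held 1, 3 and 4 of its peaks, the 3 Lin- technical replicates held 0 each, and the 4 CD11b+ libraries held 2, 1, 2 and 2. *P2ry6* had 1 peak in each of CD11b+ replicates 1, 2 and 3 and none in replicate 4 or in Lin- cells. *P2rx7*, the channel known for triggering the NLRP3 inflammasome, had 2 peaks in CD11b+ replicate 1 and 1 in technical replicate 3, and none in the other libraries. *P2ry2* had 1 peak in each of Lin- replicates 1 and 2 and in CD11b+ replicate 2, and *Entpd1* had 1 in Lin- replicate 2.

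**Figure D1:**
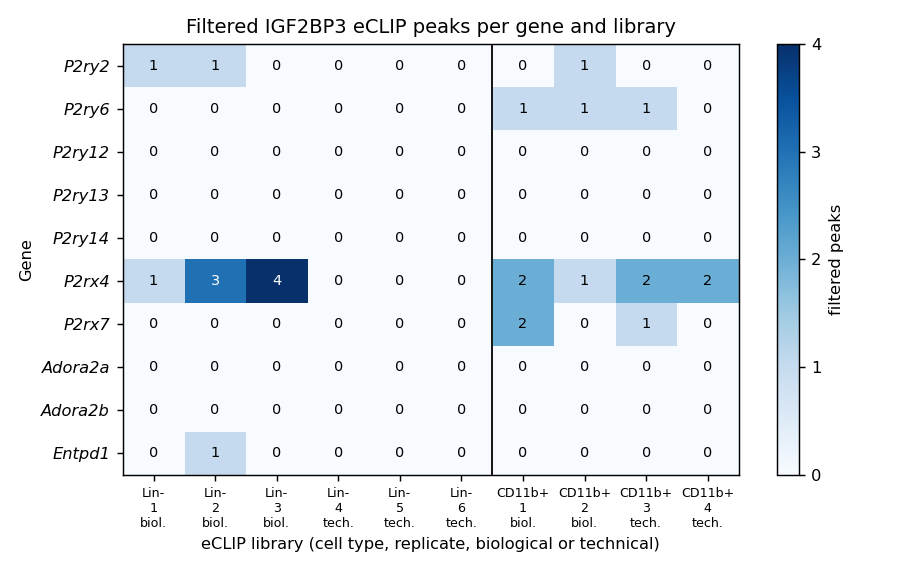
Number of filtered IGF2BP3 eCLIP peaks on each of the 10 genes (rows) in each eCLIP library (columns, by cell type, replicate number and biological or technical kind). *P2rx4* has a peak in 7 of the 10 libraries, and the 3 Lin- technical replicates hold no peak on any of the 10 genes.

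Lin- biological replicates held 2, 5 and 4 peaks on the 10 genes, a mean of 0.410 ± 0.121 per 1000 peaks of the library (SD, n = 3). CD11b+ biological replicates held 5 and 3, a mean of 0.443 ± 0.204 (SD, n = 2). The ranges overlapped, at 0.272 to 0.498 and 0.298 to 0.587 per 1000 peaks, and no test was made. An exact permutation test of 3 against 2 replicates cannot reach a p of 0.05. The CD11b+ technical replicates held 4 and 2. The Lin- technical replicates held 0 of 4040, 6494 and 4510 peaks. Those 3 libraries had fewer peaks than the Lin- biological replicates, and the part of this in their lack of peaks on the 10 genes was not tested. The input filter removed none of the 25 peaks, and none of the 10 inputs had a peak on any of these genes. The input lists were short, at 217 to 1885 peaks each, so their lack of peaks on these genes says little about background.

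Peaks of different libraries that overlapped were merged into regions, which gave 7 Lin- and 7 CD11b+ regions on the 10 genes, 13 in all, since 1 region of *P2rx4* was found in both. In Lin- cells, *P2rx4* was the single gene of the 10 with a region in 2 or more biological replicates, a state reached by 9.84% of all listed genes and 14.9% of those with a mean of at least 10. In CD11b+ cells *P2rx4* and *P2ry6* reached it, against 7.82% and 11.6%, and 9 of the 10 genes belong to the group behind the latter share. *P2ry2* had peaks in 2 Lin- biological replicates, but at different places in the gene. Of the 13 regions, 8 rested on 1 library. *P2rx4* had 4 regions in Lin- and 2 in CD11b+ cells. Such numbers were common: of the genes with a region, 1665 of 7944 had at least 4 in Lin- cells, and 3569 of 7341 at least 2 in CD11b+ cells.

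The 6 regions seen in Lin- cells alone and the 6 seen in CD11b+ cells alone differed in place. In splice-site and repeat shares the whole libraries differed in the same direction (below), so the contrast is not read as particular to these genes. Of the Lin- regions, 4 lay at a 3′ splice site, that is, overlapped the last 50 nt of an intron or the first base of the next exon. None of the CD11b+ regions did. By gene, 2 of the 10 had a peak at a 3′ splice site in Lin- cells, against 24.4% of all genes with a mean of at least 10. In CD11b+ cells 0 of the 9 with such a mean did, against 9.51%. Both counts were near these shares. No share over all regions was set beside the region counts. Of the Lin- regions 0, and of the CD11b+ regions all 6, held bases masked as repeats in the genome sequence. A CA-repeat hexamer (ACACAC or CACACA) was found in 0 of the Lin- and 4 of the CD11b+ regions, and in the region shared by both. The splice-site window was chosen after these regions had been seen.

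The 4 regions of Lin- cells at a 3′ splice site are shown in the sense of the transcript, 5′ to 3′, from GRCm38 (mm10), with the bases of the following exon in the principal transcript in capitals. They show how closely the called interval met the end of the intron.
*P2rx4* intron 4, plus strand, chr5:122719079-122719134: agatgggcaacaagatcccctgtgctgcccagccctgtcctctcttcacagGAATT
*P2rx4* intron 6, plus strand, chr5:122724945-122724987: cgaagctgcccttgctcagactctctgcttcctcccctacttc
*P2rx4* intron 9, plus strand, chr5:122727347-122727397: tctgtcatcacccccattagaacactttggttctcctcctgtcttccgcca
*P2ry2* intron 2, minus strand, chr7:100999097-100999147: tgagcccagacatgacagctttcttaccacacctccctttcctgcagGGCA
The pyrimidine share of these sequences was 57.1%, 74.4%, 72.5% and 60.8%, and none held a masked base.

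The first of them, at the end of *P2rx4* intron 4 (556 nt), was called in all 3 Lin- biological replicates, with 4, 8 and 3 reads in replicates 1, 2 and 3, and in no CD11b+ library. The peaks ended 4, 3 and 2 nt past the first base of coding exon 5. The region before exon 7, in intron 6 (315 nt) of P2rx4-201, was called in replicates 2 and 3 with 4 reads each, and the first exon base lay 3 nt past its last base. The transcript P2rx4-203, of the retained-intron class, has an exon over this stretch, so the annotation also places it in a noncoding exon. The region in intron 9 (107 nt) came from replicate 3 alone, with 3 reads, and the next exon began 2 nt past its last base. *P2ry2* intron 2 (4463 nt) was called in replicate 1 alone with 3 reads, and the exon it abuts holds the *P2ry2* coding sequence. Read numbers were thus small. In replicates 1 and 3, peaks of 3 reads were the smallest in the library, and 51.6% of the peaks of replicate 2 had fewer reads than the 8-read peak of *P2rx4*.

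**Figure D2:**
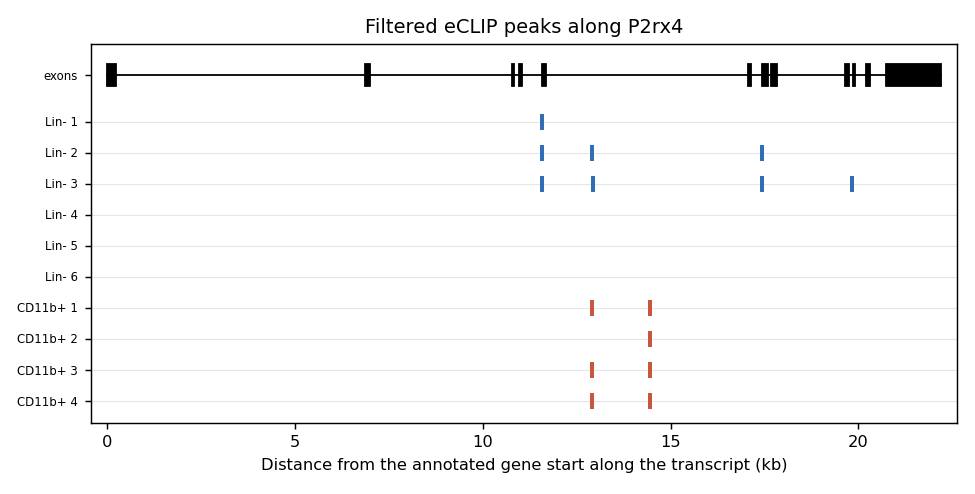
Filtered eCLIP peaks (coloured ticks, at the peak centre) along *P2rx4* in each Lin- (blue) and CD11b+ (red) library, with the exons of P2rx4-201 in black and the distance from the annotated gene start in kb on the x axis. The Lin- peaks at 11.6, 17.4 and 19.8 kb abut exons, whereas those at 12.9 kb (both cell types) and 14.4 kb (CD11b+ only) lie inside the long intron 5.

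The regions with CA repeats are shown in the same way, with every CACA run in capitals. They show the sequence that regions of 4 different genes had in common.
*P2rx4* intron 5, plus strand, chr5:122720403-122720503: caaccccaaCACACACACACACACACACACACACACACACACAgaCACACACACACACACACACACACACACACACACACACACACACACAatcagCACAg
*P2rx4* intron 5, plus strand, chr5:122721953-122722025: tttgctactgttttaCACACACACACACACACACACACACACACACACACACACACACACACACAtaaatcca
*P2ry6* intron 1, minus strand, chr7:100947335-100947406: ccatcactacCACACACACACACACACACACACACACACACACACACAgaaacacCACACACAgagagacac
*P2rx7* intron 5, plus strand, chr5:122660315-122660382: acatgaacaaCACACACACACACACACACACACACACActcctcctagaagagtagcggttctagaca
*P2ry2* intron 1, minus strand, chr7:101007451-101007509: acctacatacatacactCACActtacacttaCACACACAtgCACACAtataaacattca
CACA runs covered 84 of 101, 50 of 73, 46 of 72, 28 of 68 and 18 of 59 bases. A CA repeat occurs at many places in the mouse genome, and the file headers name a repeat filter ahead of mapping. How the reads at these repeats were chosen among places was not examined here.

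The first repeat of *P2rx4* intron 5 (5367 nt) was the region found in both cell types. It was called in CD11b+ replicates 1, 3 and 4 with 9, 5 and 7 reads and in Lin- replicates 2 and 3 with 5 and 4 reads. The second repeat of that intron was called in all 4 CD11b+ libraries, with 6, 5, 13 and 6 reads in replicates 1 to 4, and in no Lin- library. The last base of the first repeat lay 1373 nt after its nearest 3′ splice site, and that of the second 2569 nt before its nearest one. The *P2ry6* repeat, in intron 1 (24200 nt) of P2ry6-201, had 4, 6 and 6 reads in CD11b+ replicates 1, 2 and 3. It lay 7317 nt before the nearest 3′ splice site. The repeats of *P2rx7* intron 5 (8 reads, CD11b+ replicate 1) and *P2ry2* intron 1 (4 reads, CD11b+ replicate 2) were called once each.

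*P2rx7* also had 2 regions without a CA repeat. The one in intron 1, chr5:122649430-122649500, had 15 reads in CD11b+ replicate 1 and a peak p of 1.99e-09 in the deposited list, the largest number of reads on any of the 10 genes, and 77.8% of the peaks of that library had fewer. The one in intron 11, chr5:122676054-122676105, had 7 reads in technical replicate 3. Both were rich in purines, with pyrimidine shares of 23.9% and 9.62%. In Lin- cells, the *P2ry2* region chr7:100998426-100998476 was the single region of the 13 with its centre in coding sequence (5 reads, replicate 2). The *Entpd1* region chr19:40621862-40621933 (6 reads, replicate 2) lay in an intron of Entpd1-204, upstream of the principal transcript Entpd1-201, had a GC content of 84.7%, and was the single region with the sequence GGAC.

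**Figure D3:**
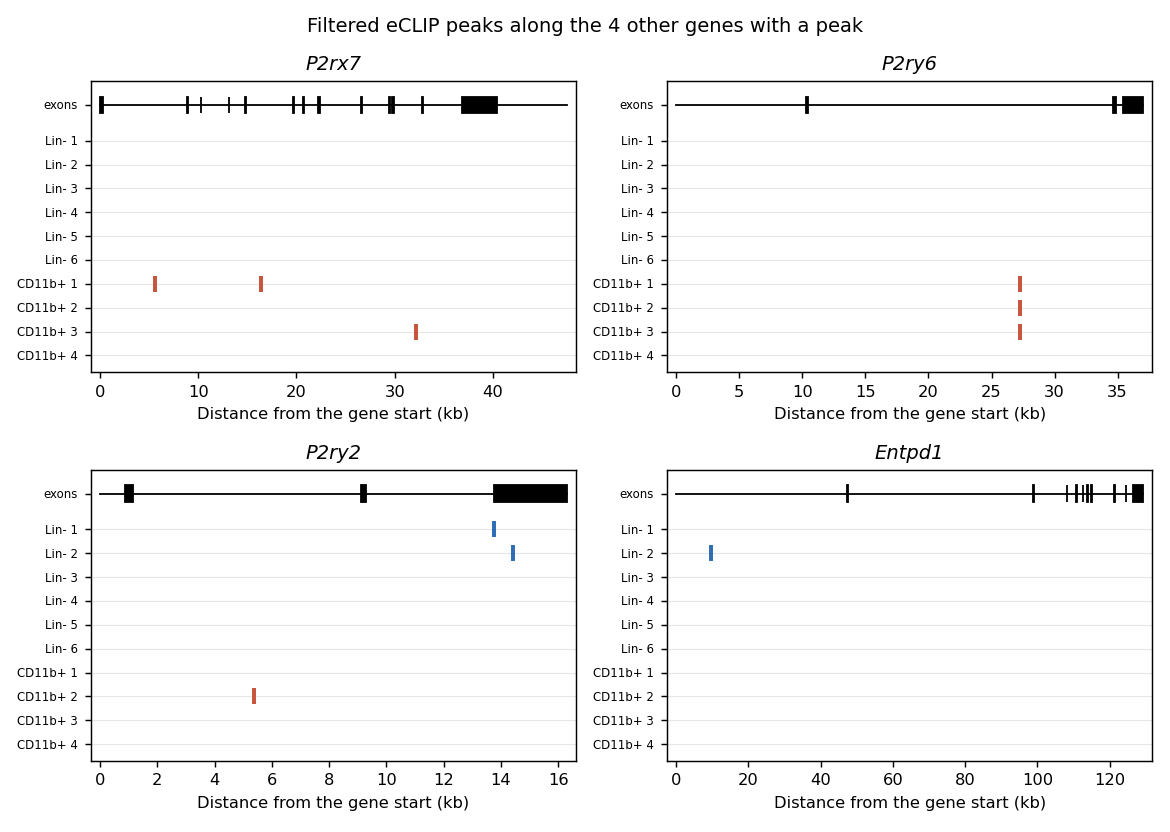
Filtered eCLIP peaks (coloured ticks) along *P2rx7*, *P2ry6*, *P2ry2* and *Entpd1* by library, with the exons of the principal transcript in black and the distance from the annotated gene start in kb. *P2rx7* and *P2ry6* have peaks in CD11b+ libraries (red) and none in Lin- libraries (blue), *Entpd1* the reverse, and *P2ry2* has peaks of both cell types at different places.

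Of the 7 regions in Lin- cells 5 lay in introns by their centre (71.4%, 95% Wilson interval 35.9 to 91.8), against 64.2% of all regions of that cell type. Where any contact with an exon counted as exonic, 3 of the 7 lay in introns (42.9%), and no share over all regions was set beside this count. In CD11b+ cells 7 of 7 lay in introns by their centre (100%, interval 64.6 to 100), against 75.4%. These intervals cover counting error only, and regions of 1 gene share their source.

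The whole libraries differed in some of these features. The share of all filtered peaks at a 3′ splice site was 59.2%, 20.3% and 44.3% in the Lin- biological replicates and 12.8% and 10.8% in the CD11b+ ones, so the groups did not overlap. Peaks without a masked base made up 62.3% to 65.3% in Lin- and 29.0% and 36.6% in CD11b+ biological replicates. The CA-repeat hexamer shares overlapped, at 4.68%, 7.31% and 9.11% of all peaks in Lin- and 8.93% and 20.5% in CD11b+ biological replicates, and those of CACA overlapped too. Of the 11 Lin- peaks on the 10 genes, 7 were at a 3′ splice site and 9 had no masked base, against 38.1% and 62.9% of all Lin- peaks. Of the 14 CD11b+ peaks, 0 and 0 were, against 10.7% and 30.2%. The CA-repeat hexamer was in 2 of the 11 and 12 of the 14 peaks, against 9.99% and 24.0% of all peaks within 10 nt of their length in the same cell type. CACA itself was in 6 and 12, against 23.0% and 30.4%, and GGAC in 1 and 0, against 10.4% and 10.2%. These matches are counts of letters on the transcript strand. The hexamer holds CACA, so the shares are not independent. The 11 Lin- peaks come from 7 regions. The 7 at a 3′ splice site come from 4 of these, of which 1 on *P2rx4* was called in 3 replicates. The 12 CD11b+ peaks with a CA-repeat hexamer come from 5 regions, of which 3 were called in several libraries and 2 in 1 library each. Peaks of 1 region are thus not separate observations.

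**Figure D4:**
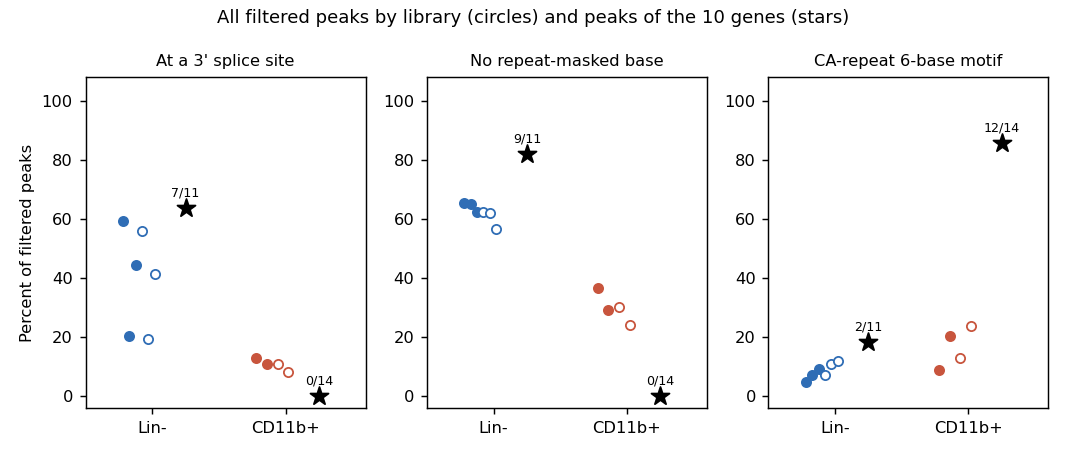
Percent of filtered peaks at a 3′ splice site (left), without a repeat-masked base (middle) and with a CA-repeat hexamer (right). Circles are all peaks of 1 library each (filled, biological; open, technical), and stars are the peaks on the 10 genes pooled over the libraries of the cell type, 11 in Lin- and 14 in CD11b+ cells.

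RNA levels of the 10 genes were read from the authors' mean normalized counts and scaled to TPM with the union of exon lengths. The tables were normalized separately and give no value per library, so no spread can be set beside any level, neighbours in the orders below cannot be told apart, and ratios between cell types are descriptions. Of the 10 genes, 3 lay above the median of genes with a mean of at least 10 in Lin- cells (18.3 TPM), and 5 in the CD11b+ table (10.5 TPM).

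Among the channels, *P2rx4* had the highest length-scaled level of the 10 in Lin- cells, 50.2 TPM (mean normalized count 3229), and 10.7 (807) in CD11b+ cells, a Lin- to CD11b+ ratio of 4.71. *P2rx7* stood at 23.5 (1282) and 16.8 (1077), a ratio of 1.40. *P2rx7* thus ranked 2 of 10 in Lin- and 3 of 10 in CD11b+ cells, and its peaks were all in CD11b+ libraries.

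Among the P2Y receptors, *P2ry2* stood at 19.8 TPM in Lin- and 15.2 in CD11b+ cells. *P2ry6* stood at 10.4 and 16.9, a CD11b+ to Lin- ratio of 1.63, and its peaks were likewise in CD11b+ libraries. *P2ry13* stood at 9.40 and 1.41 TPM (mean normalized counts 217 and 38.4), and *P2ry12* at 1.94 and 0.147 (45.2 and 4.03), so the ADP receptors had Lin- to CD11b+ ratios of 6.66 and 13.2. The *P2ry12* ratio rests on a CD11b+ mean below the cutoff of 10 used above, near the floor. *P2ry14* stood at 3.41 and 2.62 TPM, with means of 345 and 312 over its 11059 nt of exons. *P2ry12*, *P2ry13* and *P2ry14* lie on the minus strand of chromosome 3 inside *Med12l*, which is on the plus strand, and the RNA-seq libraries were strand-specific, although the strand setting of the counting is not given in the sources used here.

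Among the adenosine receptors, which signal through Gs, *Adora2a* stood at 7.71 TPM in Lin- and 0.594 in CD11b+ cells (means 216 and 19.6), a CD11b+ to Lin- ratio of 0.0770. *Adora2b* went the other way, at 1.92 and 2.99 (32.3 and 59.5). *Entpd1* stood at 16.2 and 27.4 TPM (826 and 1647), a CD11b+ to Lin- ratio of 1.70, and ranked 4 of 10 in Lin- and 1 of 10 in CD11b+ cells. The 4 genes at the top in Lin- cells included all 3 with a Lin- peak, and the 5 genes at the top in CD11b+ cells included all 4 with a CD11b+ peak. These levels are means over both genotypes, whereas the peaks come from WT/MLL-Af4 cells, and no share over all genes of like level was set beside these counts. Peak calling needs reads, and the part of RNA level in which genes had a peak was not tested.

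**Figure D5:**
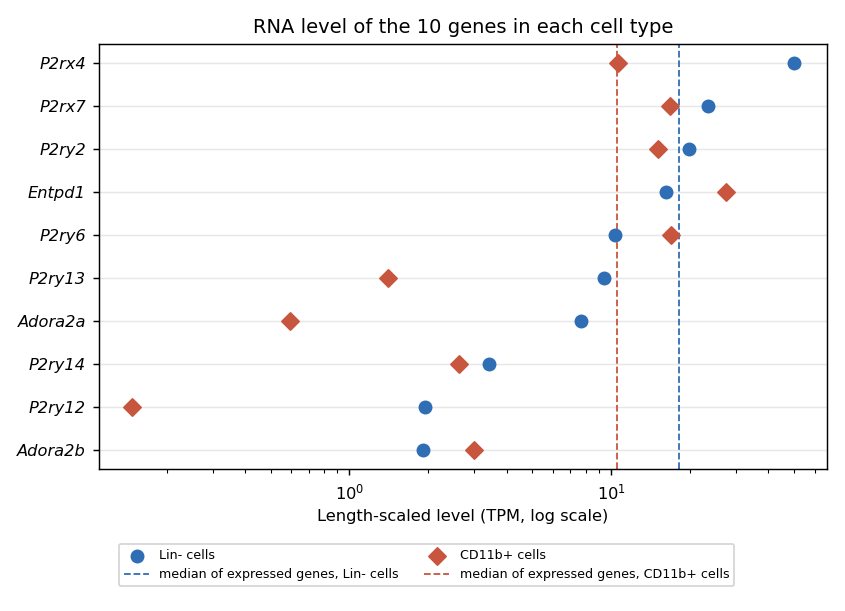
Length-scaled RNA level (TPM, log scale) of each of the 10 genes in Lin- (blue circles) and CD11b+ cells (red diamonds), from the authors' mean over both genotypes, with no error bar because no value per library was used. Dashed lines mark the median of genes with a mean of at least 10, 18.3 in Lin- and 10.5 in CD11b+ cells.

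Other genes of the purinergic pathway and the chromosomal neighbours of the 10 genes were counted from fixed lists. Of the 51 listed in each table, 17 had a filtered peak in Lin- cells and 18 in CD11b+ cells, near the 26.5% and 25.6% of all listed genes and the 39.8% and 37.1% of those with a mean of at least 10. Of the other purinergic receptors, 1 of 9 listed had a peak in Lin- and 0 of 8 in CD11b+ cells. Of the other enzymes, 2 of 16 and 2 of 17 did, and *Entpd7*, an intracellular relative of *Entpd1*, had a region in both CD11b+ biological replicates. Of the release and transport genes, 2 of 9 and 5 of 9 did, with *Slc29a3*, a nucleoside transporter, recurring in Lin- cells. Of the 12 downstream partners, which all had a mean of at least 10, 9 had a peak in each cell type, against 39.8% and 37.1% of genes with such a mean. A recurrent region was found in 5 of them in each cell type, against 14.9% and 11.6%, namely *Gnas*, *Gnaq*, *Gna13*, *Arrb1* and *Adcy7* in Lin- and *Gnai2*, *Gnas*, *Gnaq*, *Arrb1* and *Adcy7* in CD11b+ cells. These encode G-protein alpha subunits, beta-arrestin 1 and an adenylyl cyclase, and serve many other receptors. *Gnas*, for example, stood at 163 TPM in Lin- and 42.7 in CD11b+ cells. All 12 stood above the median level of genes with such a mean. They ranged from 36.7 to 516.7 TPM in Lin- cells (median 18.3) and from 11.25 to 554.5 in CD11b+ cells (median 10.5). The part of level in these counts was not tested.

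Among the neighbours, *Camkk2*, next to *P2rx4*, had a recurrent region in both cell types, *Specc1l*, next to *Adora2a*, in CD11b+ cells, and *Med12l* in Lin- cells. *Med12l* had 2 and 3 peaks in Lin- biological replicates 2 and 3, all within the span of *P2ry14* but on the opposite strand, and 0 in replicate 1 and in the 4 CD11b+ libraries. The Lin- technical replicates 5 and 6 held 1 and 2 more within that span. The eCLIP peaks carry a strand, and none over *P2ry14* was on its own strand.

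The genes whose filtered peak numbers over the 10 eCLIP libraries were most like those of *P2rx4* were *Dapp1* (sum of absolute differences 4), *Rbm10* (5) and *Ip6k1* (5), out of 8958 genes compared. *P2rx4* had 15 peaks in all, *Dapp1* 15, *Rbm10* 12 and *Ip6k1* 14. By the sum of differences, 8 genes lay at 5 or nearer, and the last 2 were taken from them by the nearest mean normalized count.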

How the data were processed

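The authors mapped strand-specific RNA-seq reads to mm10 with STAR (version 2.5.3a in the submitters' processing notes), masked repeats with Bowtie2 and RepeatMasker, and compared genotypes with DESeq2 (fdrtool for Lin- p-values). From the deposited tables, the normalized count signal averaged by the authors over both genotypes was used. The other columns hold the authors' fold changes, errors, test statistics, p-values and calls and were not used, so no genotype test was made. CLIPper peaks, filtered on the input by the authors, carry per the file headers the build mm10, and in each line a gene ID, a number read here as reads and a value read as the peak p (at most 0.05). Peaks were assigned by gene ID, merged from 1 nt of overlap on a strand, and placed by their centre on GENCODE M21 (GRCm38) with Python 3.11.15, pandas 2.3.3 and pysam 0.24.0. Sequence and soft-masking came from the RefSeq GRCm38.p6 genome. Merging and placing were tested on simulated intervals. Levels used union exon length, and 26503 of 26560 (Lin-) and 25837 of 25887 (CD11b+) genes matched M21. Genes named were the 10, recurrent genes of the pathway lists, and the 3 most like *P2rx4*, besides the targeted gene *Igf2bp3*. The marker genes *Kit*, *Elane*, *S100a8* and *Itgam* were chosen for mention after their values were seen. One gene of the marker lists is not reported here. Members and lists were chosen with earlier results of these data known. Technical replicates could not be matched to biological ones from the labels.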

Additional observations from a re-analysis of the deposited data

How the results depend on the processing

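No paired analysis was possible because no result comes from a test and the deposited values used here do not pair replicates. Of 111 alternative values, 98 stayed within 1.5 times the count or within the error of the value reported, including all 45 that left out 1 library. Part of these could not move. The input filter removed no peak on the 10 genes, and the Lin- technical replicates held none to leave out. The counts of recurrent genes and of regions at a 3′ splice site were not computed with 1 library left out. Recurrence in CD11b+ cells needs both biological replicates. The tally is thus no measure of how stable these counts are. At a peak p below 0.001, Lin- cells kept 2 regions on the 10 genes (7 in the report), 100% of them in introns, 0 genes with a region in 2 biological replicates and 0.116 peaks per 1000. CD11b+ cells then kept 2 genes with a peak and 0 with a recurrent region. All listed genes with a peak fell alike, to 13.9% in Lin- and 14.2% in CD11b+ cells. With the Lin- technical replicates included the mean was 0.205 peaks per 1000. Against all genes with a mean above 0, 8 of the 10 lay above the median level in Lin- cells. After the data had been seen, 14 of the alternative values were added. With peaks of at least 5 reads 4 regions remained in Lin- cells, namely those of *P2rx4* introns 4 and 5, the *P2ry2* coding sequence and *Entpd1*. Of the regions at a 3′ splice site, only that of *P2rx4* intron 4 was thus left, from replicate 2 alone. With peaks under 50% masked bases 0 genes and 0 regions remained in CD11b+ cells. The other 6 added values set the window before a 3′ splice site to 20 or 100 nt or used biological replicates only. They left 4 Lin- and 0 CD11b+ regions there, but could not have done otherwise. The 4 regions ended within 4 nt of a 3′ splice site, and all others at least 557 nt from one. The Lin- technical replicates held no peak on these genes, and leaving out CD11b+ libraries cannot add a region. These 6 values are thus no check on the splice-site count. The small read numbers limit every region named.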
